A study of Mus musculus with 8 samples.

Results

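The 10 genes described here encode the keratins of the basal and suprabasal epidermis: Krt5, Krt14, Krt15, Krt1, Krt10, Krt2, Krt77, Krt24, Krt80 and Krt79. They were taken by name from a list, and all 10 were found among the 41388 genes of the deposited tables. The study sequenced RNA of whole ear skin from 8 adult wild-type (WT) C57Bl/6 mice, 1 library per mouse. In the vehicle group, 4 mice received ethanol, and in the MC903 group, 4 received 1 nmol of MC903 on the skin each day for 12 days. MC903 is calcipotriol, a vitamin D analog used to produce itchy, atopic dermatitis-like inflammation in mouse skin.

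Keratins are intermediate filament proteins that assemble as obligate pairs of a type I (acidic) and a type II (basic to neutral) chain. Dividing keratinocytes of the basal layer make Krt5 with Krt14, and cells that leave that layer switch to Krt1 with Krt10 as they differentiate. Inflamed or wounded epidermis is known to add a further set, the stress keratins Krt6a, Krt6b, Krt16 and Krt17. The genes of the 2 types lie in separate clusters. Of the 10 genes, the 4 type I genes Krt14, Krt15, Krt10 and Krt24 lay on chromosome 11, and the 6 type II genes Krt5, Krt1, Krt2, Krt77, Krt80 and Krt79 on chromosome 15, all on the minus strand. Krt15, Krt10 and Krt24 had 8 exons in the deposited annotation, and the other 7 genes had 9.

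Promoter windows of 250 bases before to 50 bases after the annotated start were available from RefSeq (GRCm38.p6) for 7 of the 10 genes. The annotated start of Krt14 lay 1518 bases away from the gene start of the deposited tables, and its window was not used. The other 6 starts lay within 14 bases of the deposited ones. The sequence TATATA, searched on both strands after the windows had been seen, was present in 4 of these 6 windows (Krt24, Krt10, Krt2 and Krt77), against 5.67% of all 32851 promoter windows in the table. Its position was 28 to 30 bases before the start in each of the 4 genes. Krt5 instead had GATAAAA, searched the same way, at 30 bases before the start, a sequence found in 3.45% of all windows. Krt79 had the same letters 31 bases after its start. The AP-1 type sequence TGANTCA was in none of the 6 and in 7.81% of all windows. AGGTCA, a single half-site of nuclear receptor elements, was in 2 of the 6 (Krt24 and Krt5) and in 16.3% of all windows. It lay 157 bases before the start in Krt24 and 34 bases after the start in Krt5. A match in letters is a description and not a binding site. The windows of Krt77 and Krt24, whose levels fell, of Krt2, which lies beside Krt1 and Krt77, and of Krt5 are shown 5′ to 3′, with TATATA (overlapping copies in Krt77) or GATAAAA in capitals.
Krt77 (chr15:101869656-101869955, minus strand): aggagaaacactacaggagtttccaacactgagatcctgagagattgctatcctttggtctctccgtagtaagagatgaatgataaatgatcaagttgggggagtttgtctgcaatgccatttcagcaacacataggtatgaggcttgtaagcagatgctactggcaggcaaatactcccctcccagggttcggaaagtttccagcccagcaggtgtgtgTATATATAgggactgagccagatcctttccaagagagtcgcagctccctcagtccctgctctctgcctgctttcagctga
Krt24 (chr11:99285213-99285512, minus strand): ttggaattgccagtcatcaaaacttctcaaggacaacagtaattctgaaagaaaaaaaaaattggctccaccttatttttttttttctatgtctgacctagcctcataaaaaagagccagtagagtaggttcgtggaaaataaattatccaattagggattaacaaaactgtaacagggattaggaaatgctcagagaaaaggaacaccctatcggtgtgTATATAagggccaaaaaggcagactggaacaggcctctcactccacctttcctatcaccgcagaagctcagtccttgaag
Krt2 (chr15:101818120-101818419, minus strand): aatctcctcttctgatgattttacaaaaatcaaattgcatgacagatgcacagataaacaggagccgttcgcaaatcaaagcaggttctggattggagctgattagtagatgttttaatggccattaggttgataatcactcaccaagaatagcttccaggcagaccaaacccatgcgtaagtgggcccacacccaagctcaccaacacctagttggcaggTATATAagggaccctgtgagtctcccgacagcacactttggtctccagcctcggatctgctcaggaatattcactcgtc
Krt5 (chr15:101712856-101713155, minus strand): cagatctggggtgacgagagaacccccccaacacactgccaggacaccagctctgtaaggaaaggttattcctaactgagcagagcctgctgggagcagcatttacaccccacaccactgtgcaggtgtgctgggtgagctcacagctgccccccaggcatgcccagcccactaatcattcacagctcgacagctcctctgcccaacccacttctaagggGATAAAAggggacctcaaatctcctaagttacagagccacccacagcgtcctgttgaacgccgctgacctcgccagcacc

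Library totals were 12310466 to 16837221 counts. Levels are given as RPKM, reads per kilobase of gene length and scaled library size. Library sizes were adjusted with TMM factors, so that levels can be compared between genes and between libraries. In vehicle replicate 2, 24.5% of the counts came from Bpifa2, a secretory protein of salivary glands. That library had a TMM factor of 0.775, against 0.953 to 1.13 in the others, and values without it are given after those of the single keratins. Krtdap, which differentiating keratinocytes express, stood at 8032 ± 924 RPKM in vehicle libraries, and muscle and cartilage genes were present as well. All samples were whole ear, so fewer cells of a type and less RNA per cell cannot be told apart. The 10 keratins together took 1.05% to 1.499% of the counts in vehicle and 1.33% to 1.68% in MC903 libraries. The 1.05% was that of vehicle replicate 2, where the Bpifa2 counts are part of the total. By summed TMM-adjusted RPKM, that library was the highest of the vehicle group (6580 RPKM).

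The 10 keratins did not move together. Krt14 and Krt1 rose, Krt15, Krt77 and Krt24 fell, Krt80 was slightly higher, and Krt5, Krt10, Krt2 and Krt79 did not pass the test. All 10 had enough counts to be tested, from 207 for Krt24 in MC903 replicate 2 to 119542 for Krt14 in MC903 replicate 1. With edgeR's quasi-likelihood test at an adjusted p of 0.05, 3 were higher and 3 lower, beside 41.5% of all 16105 genes tested that were called (21.3% higher and 20.2% lower). The MC903 and vehicle libraries did not overlap for 7 of the 10, beside 38.7% of all genes tested. The log2 differences between MC903 and vehicle ran from -2.99 for Krt24 to 3.19 for Krt1, with a median of -0.06, beside -0.03 over all genes tested. The median size of the difference regardless of sign was 1.22 on the log2 scale, beside 0.43 over all genes tested.

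**Figure D1:**
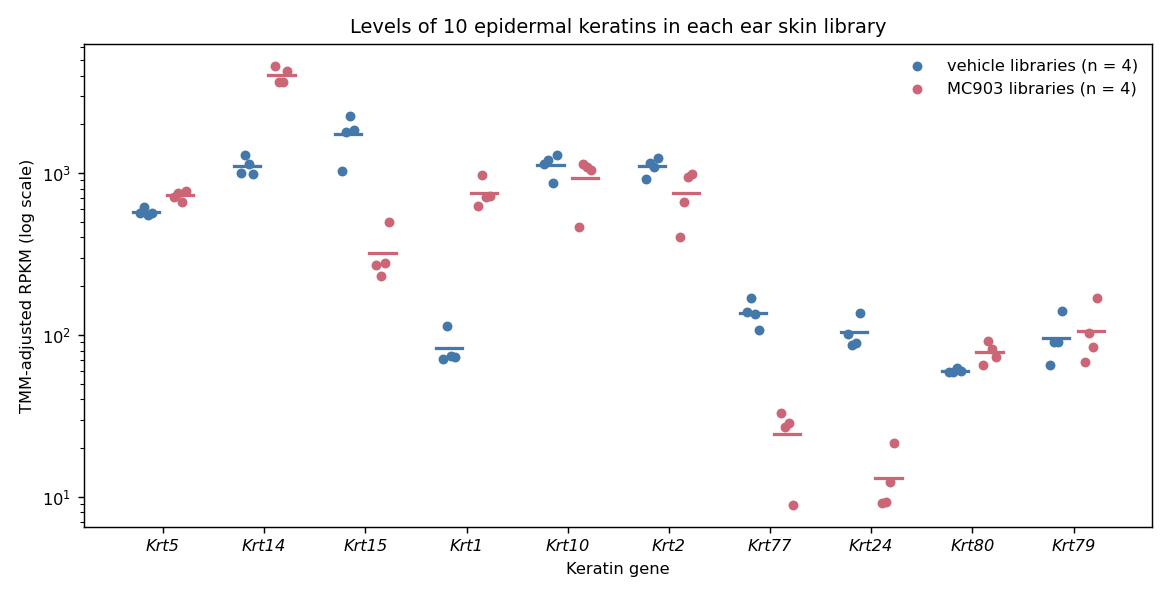
TMM-adjusted RPKM (log axis) of each keratin in the 4 vehicle and 4 MC903 libraries, with a bar at the mean of each group. Krt14 and Krt1 stood higher and Krt15, Krt77 and Krt24 lower in every MC903 library than in every vehicle library, whereas the groups overlapped for Krt10, Krt2 and Krt79.

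In the basal layer set, the type I keratin Krt14 (ENSMUSG00000045545, chr11:100203162-100207548 in mm10) stood at 996, 1295, 1137 and 982 RPKM in vehicle replicates 1 to 4. The MC903 libraries had 4588, 3645, 3628 and 4241 RPKM, each more than every vehicle library. The means were 1103 ± 146 and 4025 ± 471 RPKM (SD, n = 4 per group), a log2 difference of 1.87 ± 0.19 (SE; edgeR adjusted p = 2.71e-05), or 3.65-fold. By mean RPKM, Krt14 went from the 41st to the 10th most abundant of the genes tested.

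Krt5 (ENSMUSG00000061527, chr15:101707070-101712891), the type II partner of Krt14, had 565, 615, 551 and 568 RPKM in vehicle skin. In MC903 skin it had 709.6, 756, 667 and 778 RPKM, again above every vehicle library, but by a far smaller margin. The means were 575 ± 27.8 and 728 ± 49.5 RPKM. The log2 difference of 0.34 ± 0.16 did not pass the test (edgeR adjusted p = 0.101; 95% interval -0.0020 to 0.68, unadjusted), whereas DESeq2 called it (log2 difference 0.36, DESeq2 adjusted p = 0.0023).

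Krt15 (ENSMUSG00000054146, chr11:100131758-100135928), a type I keratin of basal keratinocytes and of the stem cells in the hair follicle bulge, was the most abundant of the 10 in vehicle skin. Its vehicle values were 1025, 1793, 2265 and 1844 RPKM, and its MC903 values 269, 231, 276 and 500.4 RPKM. Every MC903 library lay below every vehicle library, with MC903 replicate 4 apart from the other 3. The means were 1732 ± 516 and 319 ± 123 RPKM, a fall by 2.44 ± 0.31 on the log2 scale (edgeR adjusted p = 0.000114), or 5.43-fold lower. The summed level of Krt14 and Krt15 was 2022 to 3402 RPKM in vehicle and 3875 to 4857 RPKM in MC903 libraries.

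The basal type I keratins went in opposite directions. Within a library, where scaling between libraries plays no part, the ratio of Krt15 to Krt14 was 1.03, 1.38, 1.99 and 1.88 in vehicle replicates 1 to 4. In MC903 skin it was 0.0586, 0.0632, 0.0762 and 0.118. The geometric means were 1.52 and 0.0760, and the groups did not overlap (log2 difference -4.32). The two-sided exact permutation p was 0.0286, the smallest that 4 against 4 libraries allow (Benjamini-Hochberg adjusted p = 0.0327 over the 8 ratios tested). Since every MC903 library stood higher for Krt14 and lower for Krt15 than every vehicle library, this ratio had to separate. Its p adds no support beyond the levels of the genes themselves. The ratios were chosen with earlier results of these data known, which the adjustment does not cover.

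The ratio of Krt5 to Krt14, the classical basal pair, was 0.568, 0.475, 0.485 and 0.578 in vehicle and 0.155, 0.207, 0.184 and 0.183 in MC903 libraries. It was 2.89-fold lower after MC903, with no overlap (log2 difference -1.53, exact permutation p = 0.0286, adjusted p = 0.0327). With the levels of Krt5 and Krt14 given above, this ratio also had to separate, so its p adds no support. Per length, Krt14 exceeded Krt5 by 1.91-fold in vehicle and 5.51-fold in MC903 skin (geometric means).

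Close relatives of these 2 genes bear on their counts. Of the 50-base windows of the Krt14 transcript, 14.4% were identical to a window of another gene, 188 of them in Krt16 and 55 in Krt17. Of the Krt5 windows, 12.2% were shared, 150 of them with Krt6a and 49 with Krt6b. Others were shared with Gm5478 (82), Gm44323 (80) and Gm5414 (47), which were not part of the estimate below. The stress keratins rose in the same libraries. Krt16 went from 24.7 ± 13.05 to 1529.6 ± 172 RPKM, Krt6a from 37.6 ± 10.2 to 1211 ± 163 RPKM, Krt6b by 5.89 ± 0.46 and Krt17 by 2.20 ± 0.22 on the log2 scale. How reads that fit several genes were counted is not given in the sources used here. If the shared windows had drawn counts at the per-base rate of those 4 relatives in the same library, 4.87% to 5.65% of the Krt14 counts and 12.9% to 18.3% of the Krt5 counts in MC903 libraries would have come from them. In vehicle libraries it would have been 1.06% to 1.39% and 0.380% to 0.658%. With those counts subtracted, an alternative chosen after seeing the data, Krt14 differed by 1.81 on the log2 scale and Krt5 by 0.11 (edgeR adjusted p = 0.600). The ratio of Krt5 to Krt14 then differed by -1.70. If reads that fit several genes were left out of the counts, this subtraction would not apply.

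Among the suprabasal keratins, Krt1 (ENSMUSG00000046834, chr15:101845428-101850786), the type II chain that marks the switch to differentiation, showed the largest rise of the 10. It had 70.9, 113, 73.8 and 72.6 RPKM in vehicle replicates 1 to 4, where replicate 2 stood apart. In MC903 skin it had 624, 968, 713 and 718 RPKM, far above the highest vehicle library. The means were 82.6 ± 20.4 and 756 ± 148 RPKM, a log2 difference of 3.19 ± 0.23 (edgeR adjusted p = 2.75e-06), or 9.15-fold. Krt1 ranked 650th by mean RPKM among the genes tested in vehicle and 84th in MC903 skin.

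Krt10 (ENSMUSG00000019761, chr11:99385254-99389364), its type I partner, did not follow. It had 1131, 1201, 874 and 1293 RPKM in vehicle and 462, 1132, 1091 and 1038 RPKM in MC903 libraries. MC903 replicate 1 was far below the others, and the remaining 3 lay within the vehicle range. The means were 1125 ± 179.7 and 931 ± 315 RPKM, and the log2 difference of -0.27 ± 0.27 did not pass the test (edgeR adjusted p = 0.448; 95% interval -0.88 to 0.33). Without MC903 replicate 1 the log2 difference was -0.04. Exons of the opposite-strand gene Gm11940 overlap Krt10 by 52 and 94 bases, and the library protocol in the labels names no step that marks strand, so reads there cannot be told apart.

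Krt2 (ENSMUSG00000064201, chr15:101810689-101818169), a type II keratin of the upper suprabasal layers that is prominent in mouse ear skin, was close to Krt10 in level in vehicle skin. Its values were 924, 1159, 1096 and 1238 RPKM in vehicle and 400.3, 658, 939 and 993 RPKM in MC903 libraries. MC903 replicates 1 and 2 lay below all vehicle libraries, and replicates 3 and 4 overlapped with them. The means were 1104 ± 133 and 748 ± 274 RPKM, and the log2 difference of -0.56 ± 0.27 did not pass the test (edgeR adjusted p = 0.117; 95% interval -1.16 to 0.03).

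Ratios between the suprabasal chains were compared within each library. The ratio of Krt1 to Krt10 was 0.0626, 0.0943, 0.0844 and 0.0562 in vehicle and 1.35, 0.855, 0.654 and 0.692 in MC903 libraries, with no overlap. It differed by 11.7-fold (log2 difference 3.55, exact permutation p = 0.0286, adjusted p = 0.0327). The ratio of Krt2 to Krt10 was 0.986 and 0.802 (geometric means), with overlapping libraries, and its difference missed the threshold (exact permutation p = 0.229, also after adjustment). Krt2 exceeded Krt1 by 10.2 to 17.05 times in vehicle libraries and stood at 0.642 to 1.38 of it in MC903 libraries, a 14.4-fold difference (exact permutation p = 0.0286, adjusted p = 0.0327). Krt1 was at most 113 RPKM in vehicle and at least 624 RPKM in MC903 libraries. Beside the levels of Krt10 and Krt2, both ratios with Krt1 therefore had to separate. Their p adds no support beyond the levels of the genes themselves. Krt1 and Krt2 together came to 0.879 to 1.34 of the Krt10 level in vehicle and 1.44 to 2.22 in MC903 libraries.

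Set across layers, the pairs gave different answers for the 2 types. The type I ratio of suprabasal Krt10 to basal Krt14 fell from 1.02 to 0.219, a 4.64-fold difference (exact permutation p = 0.0286, adjusted p = 0.0327). The type II ratio of suprabasal Krt1 to basal Krt5 rose from 0.141 to 1.03, a 7.28-fold difference (exact permutation p = 0.0286, adjusted p = 0.0327). With the levels of the single genes given above, both ratios had to separate, so their p adds no support. In the 8 libraries the summed type II level of the 10 genes was 0.460 to 0.560 of the type I level in vehicle and 0.357 to 0.519 in MC903 skin.

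**Figure D2:**
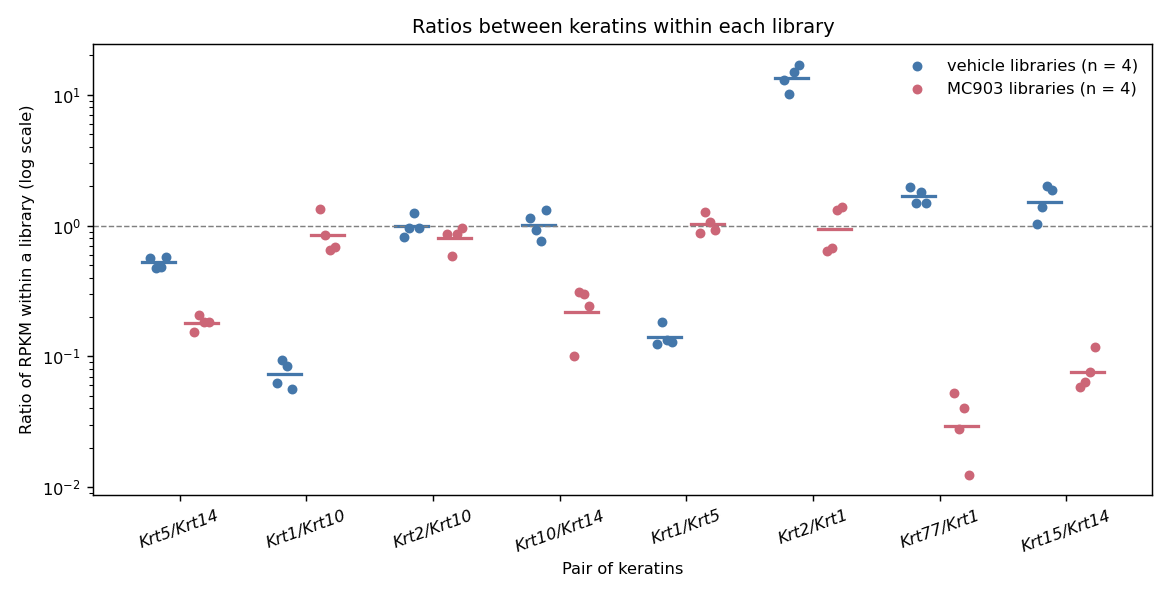
Ratio of RPKM (log axis) for 8 pairs of keratins within each of the 4 vehicle and 4 MC903 libraries, with a bar at the geometric mean; the dashed line marks equal levels. The 2 groups overlapped only for Krt2/Krt10, and Krt77/Krt1 showed the widest separation, from 1.68 to 0.0292.

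Krt77 (ENSMUSG00000067594, chr15:101858732-101869705) is a type II keratin of suprabasal epidermis that lies next to Krt1. It had 139, 168, 134 and 108 RPKM in vehicle and 32.8, 27.1, 28.5 and 8.92 RPKM in MC903 libraries. All MC903 libraries were below all vehicle libraries, and MC903 replicate 4 was the lowest. The means were 137 ± 24.9 and 24.3 ± 10.6 RPKM, a fall by 2.50 ± 0.34 on the log2 scale (edgeR adjusted p = 0.000173), or 5.65-fold lower. The ratio of Krt77 to Krt1 was 1.48 to 1.97 in vehicle and 0.0124 to 0.0526 in MC903 libraries, 57.3-fold lower by geometric mean (exact permutation p = 0.0286, adjusted p = 0.0327). This ratio also had to separate, because Krt1 stood higher and Krt77 lower in every MC903 library, so its p adds no support.

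Krt24 (ENSMUSG00000020913, chr11:99279959-99285262), a type I keratin found in differentiating keratinocytes, showed the largest fall of the 10. It had 102, 86.3, 89.7 and 137 RPKM in vehicle and 9.096, 9.34, 12.3 and 21.6 RPKM in MC903 libraries. The MC903 values stood far below the lowest vehicle library. The means were 104 ± 23.2 and 13.1 ± 5.87 RPKM, a fall by 2.99 ± 0.28 on the log2 scale (edgeR adjusted p = 1.45e-05), or 7.92-fold lower. The windows of Krt1, Krt2, Krt77, Krt24 and Krt79 had no identical 50-base match in another gene's transcripts.

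Krt80 (ENSMUSG00000037185, chr15:101349571-101370125), a type II keratin of differentiated epithelial cells, had 59.0, 58.9, 62.5 and 60.03 RPKM in vehicle and 65.6, 92.1, 81.3 and 72.8 RPKM in MC903 libraries. The vehicle libraries were nearly equal and all lay below the MC903 libraries. The log2 difference was 0.37 ± 0.13 (edgeR adjusted p = 0.0353), or 1.30-fold. The call was lost without any 1 vehicle library or without MC903 replicate 2 or 3, where the highest adjusted p was 0.1001. Across the settings tried, its adjusted p lay between 0.00733 and 0.294. The deposited length of Krt80, 1774 bases, is shorter than its longest coding transcript in GENCODE M21 (3919 bases), so its level per length rests on part of that transcript.

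Krt79 (ENSMUSG00000061397, chr15:101929332-101940324), a type II keratin of the hair canal and sebaceous duct, had 65.0, 89.8, 90.1 and 139.7 RPKM in vehicle and 67.7, 103, 84.3 and 169.9 RPKM in MC903 libraries. The 2 groups overlapped. The log2 difference of 0.14 ± 0.29 missed the threshold (edgeR adjusted p = 0.718; 95% interval -0.50 to 0.78) and turned to -0.17 without MC903 replicate 4 and to -0.01 without vehicle replicate 1.

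In the pool of the 10 keratins, vehicle skin was divided among Krt15 (27.9% ± 6.29), Krt10 (18.6% ± 3.64), Krt14 (18.1% ± 2.08) and Krt2 (18.1% ± 0.876; SD of summed RPKM shares, n = 4). In MC903 skin, Krt14 alone held 52.3% ± 7.49, followed by Krt10 (12.0% ± 3.91), Krt1 (9.81% ± 1.98), Krt2 (9.57% ± 3.16) and Krt5 (9.43% ± 0.522). The share of Krt5 was 9.48% ± 1.14 in vehicle, within the spread of the MC903 value. The share of Krt1 was 1.35% ± 0.275 in vehicle, and that of Krt15 was 4.07% ± 1.23 in MC903 skin. In the MC903 group, replicate 1 had the highest Krt14 and the lowest Krt1, Krt10, Krt2, Krt24, Krt80 and Krt79 level. Replicate 4 had the highest Krt5, Krt15, Krt2, Krt24 and Krt79 and the lowest Krt77 level.

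**Figure D3:**
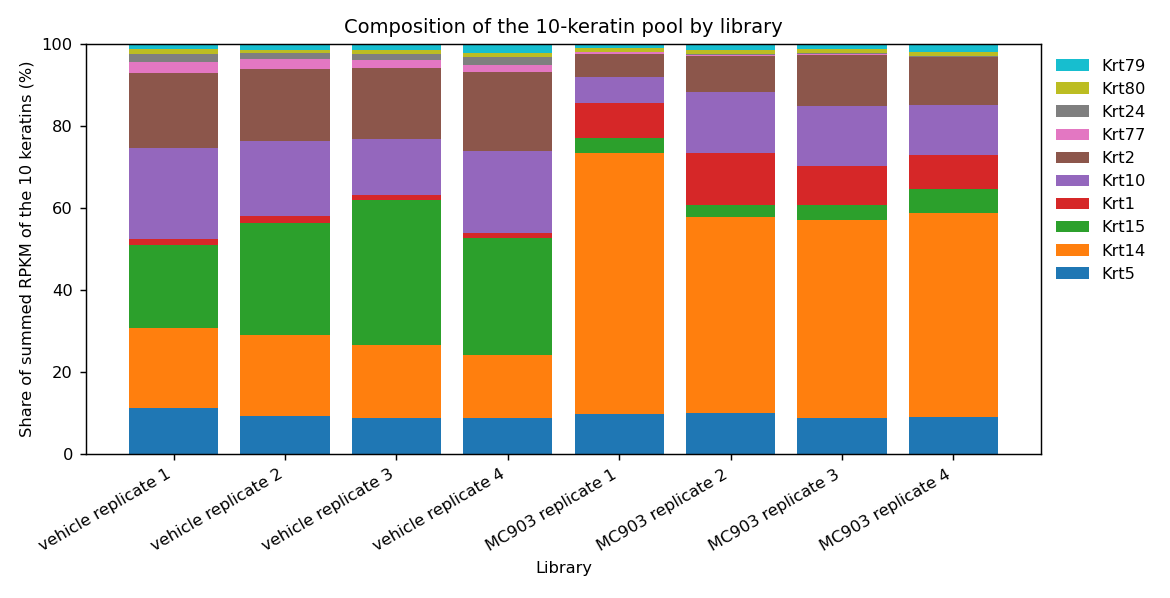
Share of the summed RPKM of the 10 keratins held by each gene in each library, as stacked bars that add to 100%. Krt14 filled 15.3% to 19.7% of the pool in vehicle and 47.8% to 63.5% in MC903 libraries, and Krt15 went from 20.2% to 35.5% down to 3.02% to 5.86%.

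Without vehicle replicate 2, the library with salivary RNA, the log2 differences were 1.95 for Krt14, -2.43 for Krt15, 3.37 for Krt1, -2.39 for Krt77 and -3.07 for Krt24, all still called (highest edgeR adjusted p = 0.000468). The value for Krt80 was 0.36 and was not called (adjusted p = 0.0912). Krt5 (0.37), Krt10 (-0.25), Krt2 (-0.55) and Krt79 (0.10) were not called either, with or without that library. The log2 differences of the ratios were then -1.58 for Krt5/Krt14, 3.67 for Krt1/Krt10, -0.31 for Krt2/Krt10 and -2.26 for Krt10/Krt14. They were 2.99 for Krt1/Krt5, -3.98 for Krt2/Krt1, -5.90 for Krt77/Krt1 and -4.37 for Krt15/Krt14. Each ratio kept its direction.

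Along the chromosomes, some neighbouring keratins moved the same way and others did not. On chromosome 15 the keratins Krt2, Krt1 and Krt77 follow each other, with 27258 bases between Krt2 and Krt1 and 7945 bases between Krt1 and Krt77. Their log2 differences were -0.56 (not called), 3.19 and -2.50. On chromosome 11, Krt14 lies next to Krt16, with 38542 bases between them, and next to these are Krt17 and Krt42, all 4 of them higher (Krt42 by 1.08 ± 0.33, edgeR adjusted p = 0.0235). Krt15 lies next to Krt13 and Krt19, and these 3 genes were lower (Krt19 by -1.94 ± 0.35, edgeR adjusted p = 0.0012; Krt13 by -2.27 ± 0.63, adjusted p = 0.0144). Krt13, Krt19 and Krt42 were low, at 0.942, 2.61 and 0.408 RPKM in vehicle skin. Krt9, the keratin on the other side of Krt14, had too few counts to be tested. Of the 44 other keratin genes in the tables, 28 were tested, 8 of them higher and 14 lower. Over all genes tested, 21.3% were higher and 20.2% lower.

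**Figure D4:**
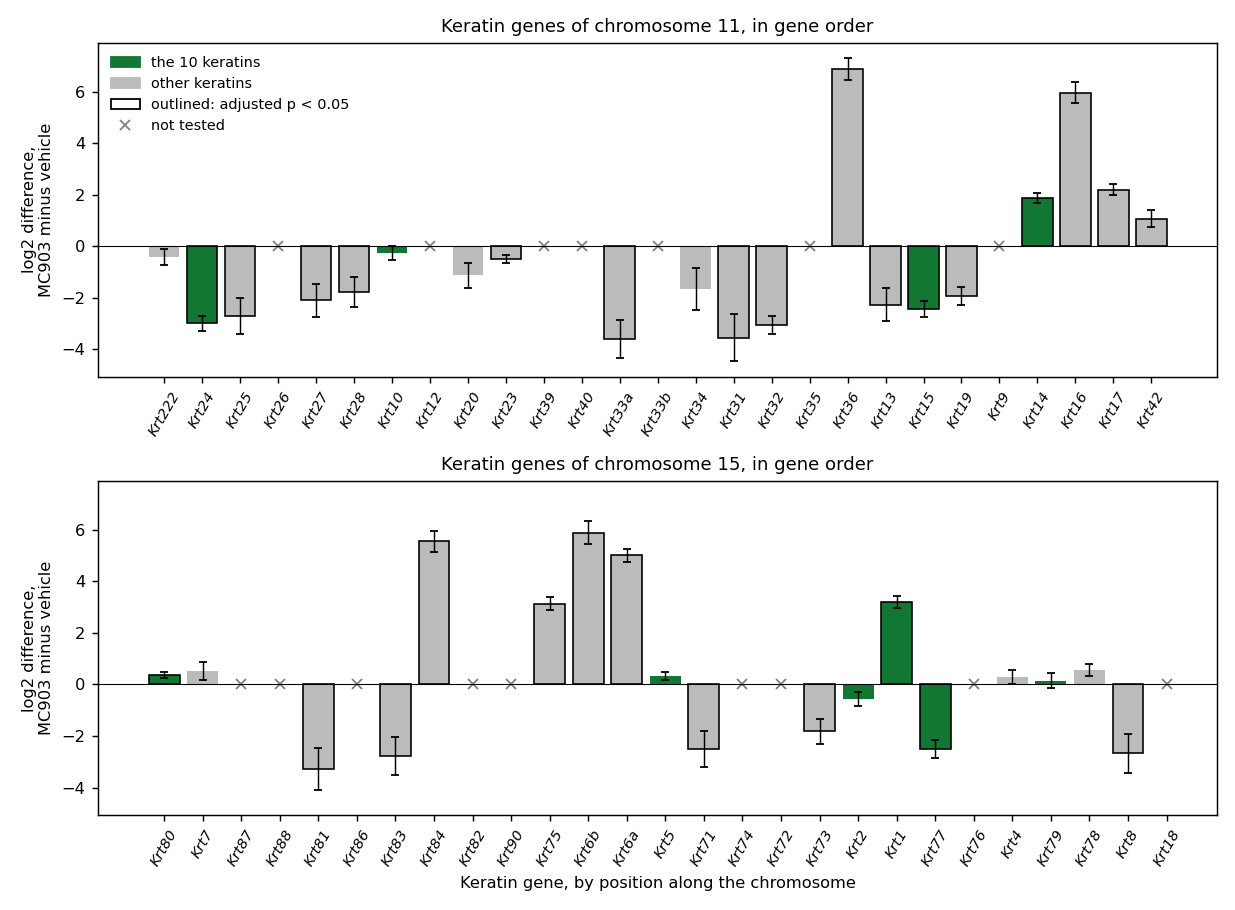
Log2 difference between MC903 and vehicle (bars, with SE) of the keratin genes of chromosomes 11 and 15, in gene order and not to scale; crosses mark genes with too few counts to test. Krt1 at 3.19 stands between Krt2 at -0.56 and Krt77 at -2.50, and Krt14 stands beside Krt16 and Krt17.

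The other keratins were counted by family, beside 41.5% of all genes tested that were called (21.3% higher and 20.2% lower). All 5 stress and companion-layer keratins were higher, Krt75 among them (3.14 ± 0.26). All 5 tested of 8 inner root sheath keratins were lower, such as Krt25 (-2.70 ± 0.70) and Krt73 (-1.82 ± 0.50), with vehicle sums from 6.89 to 59.9 RPKM and MC903 sums from 1.67 to 9.11 RPKM. Of 8 tested keratins listed as hair shaft keratins, 5 were lower and 2 higher, the latter being Krt36 (6.88 ± 0.43) and Krt84 (5.56 ± 0.40). Krt36 went from 0.490 ± 0.127 to 57.4 ± 33.1 RPKM and Krt84 from 0.800 ± 0.163 to 38.2 ± 22.7 RPKM. None of the 8 simple and mucosal keratins tested was higher and 4 were lower. Among these 4 was Krt8, which ranged from 0.348 to 4.17 RPKM in vehicle libraries (1.51 ± 1.79). The family counts rest on all 8 libraries, vehicle replicate 2 with its salivary RNA included. Krt85 was not matched in the tables and was not analysed here.

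Genes that mark the same layers were also split. Of 13 basal keratinocyte markers, 3 were higher and 3 lower (median log2 difference 0.11). The cadherin Cdh3 was higher by 1.08 ± 0.14 (edgeR adjusted p = 0.000109), and Dst, which includes the hemidesmosome linker of basal keratin filaments, fell by 1.12 ± 0.15 (adjusted p = 0.0002). Of 15 spinous and granular markers, 7 were higher and 3 lower (median 0.36), among them Casp14, a protease of the cornifying layer (3.30 ± 0.20, edgeR adjusted p = 7.03e-07), and Flg2, a filaggrin-type protein (-2.64 ± 0.17, adjusted p = 1.42e-06). Both counts stand beside the 41.5% of all genes tested that were called.

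Of 20 regulators with known roles in keratinocyte gene expression, 6 were higher and 3 lower, a share near the 41.5% of all genes that were called. Ehf, an epithelial ETS factor, was higher by 1.02 ± 0.18 on the log2 scale (edgeR adjusted p = 0.00104). The basal regulator Trp63 had 47.6 ± 5.05 and 37.7 ± 8.36 RPKM, a difference that missed the threshold (edgeR adjusted p = 0.169). Of 12 tested linkers and bundlers of keratin filaments, 3 were higher and 2 lower, again near that 41.5%. Among them was the desmosome plaque protein Pkp3, higher by 0.90 ± 0.12 (edgeR adjusted p = 0.000208).

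Markers of the hair follicle, sebaceous gland and cell cycle were set beside these results, and their part in them was not tested. Beside the fall of Krt15, 5 of 9 bulge and outer root sheath markers were lower and none higher (20.2% of all genes tested were lower and 21.3% higher, which also stands beside the marker counts that follow), with summed levels of 225 to 245 RPKM in vehicle and 148 to 216 RPKM in MC903 libraries. Fgf18 fell by 1.41 ± 0.22 and Tcf7l1 by 0.78 ± 0.18 on the log2 scale. Beside Krt79, infundibulum and junctional zone markers were 2 higher and 3 lower of 7, with Plet1 at 1.73 ± 0.27 and Lgr6 at -1.76 ± 0.12. Their summed levels overlapped, at 672 to 1144 RPKM in vehicle and 911 to 1052 RPKM in MC903 libraries. Sebaceous gland markers were lower in 7 of 10 cases, such as Scd3 (-1.44 ± 0.28) and Fads6 (-0.88 ± 0.16), with sums of 1414 to 2909 RPKM in vehicle and 924 to 1789 RPKM in MC903 libraries. All 7 cell cycle markers were higher, with sums of 31.8 to 41.97 RPKM and 83.2 to 97.3 RPKM (Plk1 2.29 ± 0.18, Cdk1 1.92 ± 0.16).

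Markers of other cells in the ear also differed between the groups. Leukocyte markers were higher in 5 of 6 cases (Itgam 1.796 ± 0.17, Csf3r 3.01 ± 0.32), with sums of 76.0 to 131 RPKM in vehicle and 117 to 283 RPKM in MC903 libraries. Fibroblast markers had 1 of 6 lower, Dcn (-0.74 ± 0.19), with sums of 2927 to 3755 RPKM and 2083 to 2756 RPKM. Cartilage and muscle markers were lower in 4 of 5 tested, among them Acan (-1.37 ± 0.14) and Myh4 (-1.66 ± 0.51), with sums of 1279 to 4122 RPKM and 626 to 2071 RPKM. No listed marker was at 0 in all 8 libraries.

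The gene profiles most like each keratin were found by the root mean square difference between log2 CPM values centred on each gene's mean over the 8 libraries, among 13063 genes. A small value means that 2 genes differ little across the libraries, which says nothing of shared control. Krt14 was nearest to Tmem173 (0.0882), which encodes the innate immune adaptor STING, and to Klk7 (0.102), a protease of the cornified layer. Krt1 was nearest to Icos (0.196), a T cell costimulator, and Tarm1 (0.243). Krt15 was nearest to A2m (0.282) and Adora1 (0.312), Krt77 to Cfap57 (0.264) and Flrt1 (0.333), and Krt24 to Cyp2b23 (0.314) and Pls1 (0.424). Krt5 had close neighbours, Mvp (0.0524) and Rbm8a (0.0704), as did Krt80, with Dab2 (0.063) and Eloc (0.0642). Krt10 was nearest to Tspyl1 (0.104) and Man1a (0.120), Krt2 to Zfp119b (0.126) and Ccdc171 (0.129), and Krt79 to Tmem150c (0.196). No keratin was among the 2 nearest of any of the 10. Among the 10 themselves, the closest were Krt5 with Krt80 (0.152) and Krt10 with Krt2 (0.291).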

How the data were processed

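Each of the 8 libraries came with a table in which the authors deposited raw counts for each Ensembl gene as whole numbers, with CPM and RPKM beside them. Single reads of 50 bases were sequenced after removal of ribosomal RNA, per the labels' protocols. Per the submitters' processing notes, the build was mm10 and the tools included featureCounts 1.4.5, Subread and STAR 2.0.4b. Not given in the sources used here are the annotation release, the strand setting and how multiply mapped reads were treated. In each library, the deposited CPM equalled each count scaled by the library total to within 2.33e-10, and the deposited RPKM equalled that CPM per kilobase to within 5.82e-11. Of 41388 identifiers, 40254 were named by ID and 156 by position (at least 90% overlap with a GENCODE M21 gene).

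Counts were filtered with filterByExpr, scaled with TMM and compared between MC903 and vehicle by the quasi-likelihood test of edgeR 4.0.16 (R 4.3.3), with Benjamini-Hochberg adjustment over 16105 genes. The fit was tested on simulated data. RPKM printed in the results were recomputed from the counts with TMM-adjusted library sizes. Ratios between keratins were compared by exact permutation (Python 3.11.15, scipy 1.17.1). Alternatives were other normalizations, other filters, DESeq2 1.42.0, limma-voom (limma 3.58.1), the replicate number as a block and leaving out each library. Named are the 10 keratins, other keratins, the 2 called genes with the smallest p per list and the 2 nearest profiles per keratin; Trp63, Krt42 and Krtdap and the sums of keratins were added after their values were seen, as were the promoter sequences searched. Some genes that this rule names are not reported here. The members, lists and ratios were chosen with earlier results of these data known. The precision rests on the library totals and on the spread between mice of a group. Intervals of the fit give the uncertainty of the log2 difference, not the spread between mice.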

Additional observations from a re-analysis of the deposited data

Results flagged for a closer look

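In groups of 4 libraries, 36 sets of values (the 10 keratins and 8 ratios in each group) were checked for a library far from the others, where chance alone marks about 1 set in 20. Krt10 stood at 462 RPKM in MC903 replicate 1, against 1038 RPKM in the next lowest library of that group. Krt15 stood at 500.4 RPKM in MC903 replicate 4, against 276 RPKM in the next highest. Krt1 stood at 113 RPKM in vehicle replicate 2, the library with salivary RNA, against 73.8 RPKM in the next highest. The ratio of Krt1 to Krt5 was 0.184 in that library, against 0.134 in the next highest. No cause of these values was tested.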

How the results depend on the processing

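Over 17 alternative settings, the directions and calls of Krt14, Krt15, Krt1, Krt77 and Krt24 held, as did the lack of a call for Krt10 and Krt2. The 8 ratios kept their direction in 11 settings. Krt80 lost its call in 10 of 17 settings, with log2 differences of 0.30 with upper quartile factors, 0.29 with library sizes alone, 0.36 without a filter and 0.36 with the replicate block, and 0.29 to 0.45 with 1 library left out. Krt5 gained a call with DESeq2 (0.36) and ran from 0.31 to 0.39 with 1 library left out. Krt79 ran from -0.17 to 0.38 with 1 library left out, changing sign without vehicle replicate 1 (-0.01) or MC903 replicate 4 (-0.17). The cause was not tested. The number of genes called was 5389 to 7072 over the planned settings, and 5 to 7 of the 10 keratins were called. The replicate numbers were not taken to pair the mice. Deviations of same-numbered libraries correlated at -0.204 to 0.0568, and those of differently numbered libraries at -0.138 to 0.291. With so few libraries this cannot exclude a pairing. The replicate block gave 5705 genes called against 6682 without it, and changed no keratin call other than that of Krt80. Ratios without a library were computed as values and were not tested.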
